A study of Mus musculus with 2 samples.

Results

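Lhx2 is described here as a single mouse locus whose DNA methylation differed in both directions between wildtype (wt) and ERβ-deficient (βerko) mouse embryonic fibroblasts (MEFs), with most of the differentially methylated positions being gains. The gene was chosen on the measured values themselves, because the deposited list of differentially methylated positions (DMPs) assigned it many gained and a few lost positions. All values of the wt and βerko contrast at Lhx2 are therefore a description and carry no test. Of 8071 deposited DMP rows, 21 name Lhx2. A DMP is a cytosine read more than 4 times in each library whose methylation lay under 20 % in the one cell type but over 80 % in the other, and 20 of the 7747 positions that met this definition lay at Lhx2. A window from 20 kb before the first to 20 kb after the last of these rows, chr2:38183163-38232607 on the plus strand of NCBIM37 (mm9), held 201 of the 826937 cytosines covered in both libraries, at 186 CpGs.

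Methylation was measured by reduced representation bisulfite sequencing (RRBS), in which DNA cut by MspI at CCGG is size selected, treated with bisulfite and sequenced, so that CpG-rich stretches are read densely and the rest of the genome hardly at all. Both groups were C57BL/6 embryonic fibroblasts grown in high-glucose DMEM with FCS and without any added agent, one wildtype and the other with the genotype ESR2 -/-, that is, without both alleles of the gene of ERβ. Each genotype was represented by 1 library made from a pool of 3 DNA batches, so the spread between cultures or animals was not measured and no difference given here has a replicate check. The tables hold methylation only, so neither the fibroblast identity nor the loss of Esr2 expression could be checked with marker genes, and Lhx2 expression was not analysed here.

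Lhx2 encodes a transcription factor with a pair of LIM domains and a homeodomain that is required in the developing forebrain, eye and hair follicle. LIM homeodomain proteins bind DNA through the homeodomain and act in complexes built on the cofactor Ldb1, for which LIM-only proteins compete. CpG-rich promoters of developmental regulators are usually free of methylation in somatic cells, whereas methylation within introns and exons of a gene is common and has no fixed relation to its activity.

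In GENCODE, Lhx2 (ENSMUSG00000000247.4) occupies chr2:38194801-38225253 on the plus strand. The longest transcript (ENSMUST00000000253.4) has 5 exons, starts at position 38206828 and is the reference for all distances given here, with negative distances upstream. The most upstream of the other transcripts starts at -12027 bp, and the predicted gene Gm3058 overlaps the stretch between the starts in the annotation deposited by the authors. The sequences at which the DMPs cluster are shown to place the changed CpGs, with the CG of each CpG that holds a deposited DMP row in capitals, on the plus strand of NCBIM37.
Upstream block, chr2:38203513-38203683: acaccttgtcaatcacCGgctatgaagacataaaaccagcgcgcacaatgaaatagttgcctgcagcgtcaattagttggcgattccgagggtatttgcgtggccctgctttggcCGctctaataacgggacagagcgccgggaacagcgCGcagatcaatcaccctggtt
Intron 1, chr2:38207778-38208050: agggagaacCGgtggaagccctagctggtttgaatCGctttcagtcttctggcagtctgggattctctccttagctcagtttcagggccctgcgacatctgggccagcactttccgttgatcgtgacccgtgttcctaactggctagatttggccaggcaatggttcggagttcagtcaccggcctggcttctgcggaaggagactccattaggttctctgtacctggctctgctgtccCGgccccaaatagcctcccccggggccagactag
Exon 3, coding, chr2:38210092-38210128: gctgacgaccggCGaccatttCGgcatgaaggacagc
Intron 3, first set, chr2:38211674-38211714: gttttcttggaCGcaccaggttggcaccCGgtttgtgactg
Intron 3, second set, chr2:38211998-38212042: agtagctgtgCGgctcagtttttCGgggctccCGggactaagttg

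The upstream stretch held 13 CpGs, of which 3 lost methylation in the deposited rows. The intron 1 stretch held 11 CpGs, of which 3 were gained DMPs, and the 3 stretches of exon 3 and intron 3 held 4, 2 and 3 CpGs, of which 2, 2 and 3 were gained DMPs. All 5 stretches contain at least 1 CCGG, as RRBS requires, and all 201 covered cytosines of the window lay within 35 bp of such a site.

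Along the locus the difference changed sign between the sides of the start of the longest transcript. Methylation was lower in βerko MEFs in an upstream block at -3776 to -2453 bp. It was low in both libraries at the covered cytosines of exon 1, 318 to 454 bp downstream of the start. From 727 to 5857 bp it was higher in βerko MEFs, and beyond that point lower on average. The ends of these zones were set after the values had been seen. Over the whole window the mean was 35.9 % in wt and 39.8 % in βerko MEFs, a difference of 3.91 percentage points, beside 40.7 % and 38.8 % over all covered cytosines of the genome. This small mean combined 54 cytosines that gained at least 20 percentage points, or 26.9 % of the window against 6.81 % of all covered cytosines, with 50 that lost as much, or 24.9 % against 10.4 %. With the DMP rows left out, 180 cytosines remained, of which 38 gained (21.1 %) and 45 lost (25 %) at least 20 percentage points, and the mean difference was -0.655 percentage points.

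**Figure D1:**
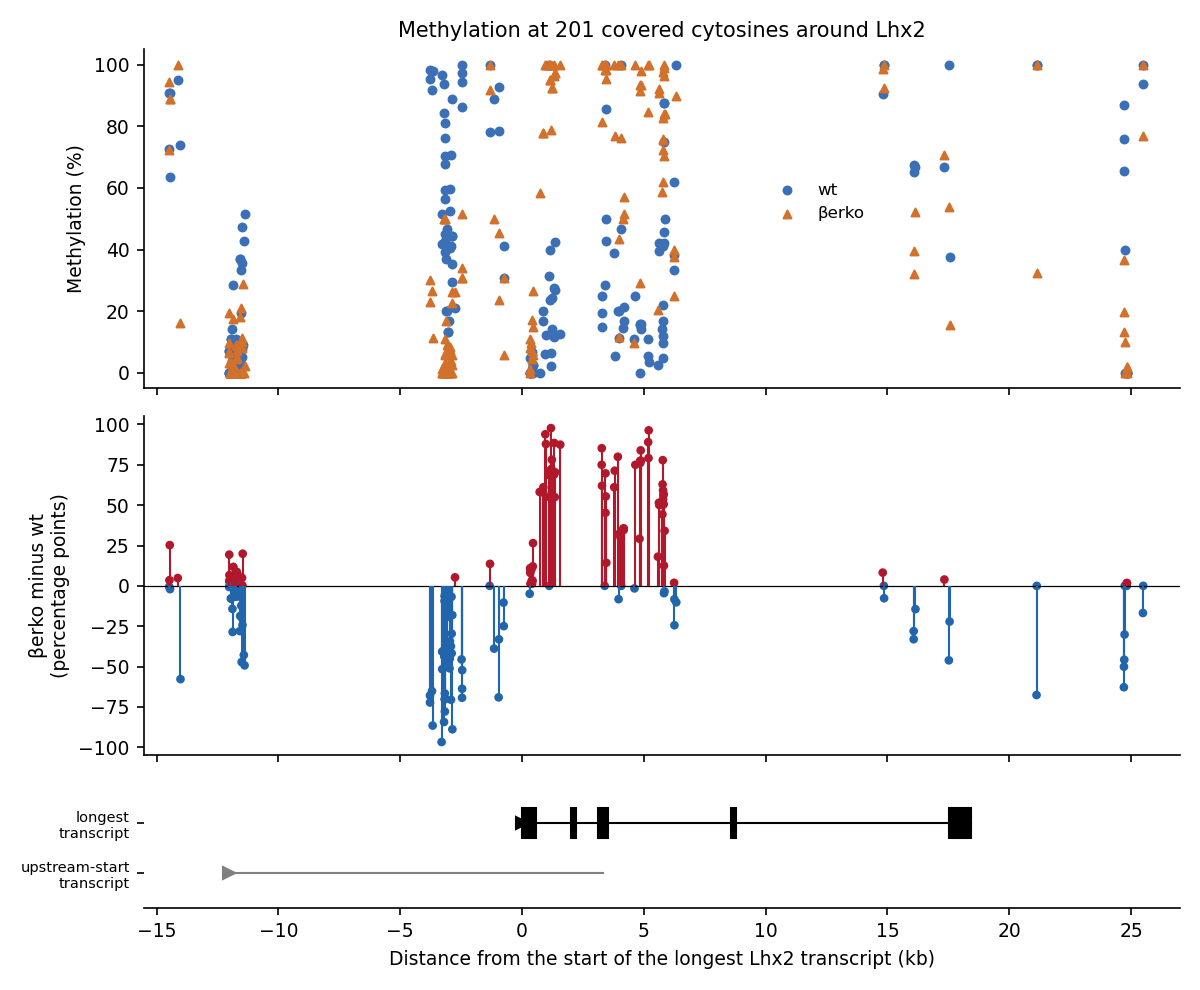
Methylation at the 201 cytosines covered in both libraries around Lhx2, against the distance from the start of the longest transcript in kb. Top, percent methylation in wt (circles) and βerko (triangles); middle, βerko minus wt in percentage points, red above and blue below 0; bottom, the longest transcript with its exons and the transcript with the most upstream start, arrowheads marking the starts. The lowest difference, -96.8 percentage points, lies upstream of the start and the highest, 97.8, lies downstream of it in intron 1.

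Gained positions formed the larger group. There were 16 gained DMPs at 14 CpGs, from 959 to 5779 bp downstream of the start, and no gained DMP lay upstream of it. Over all covered cytosines 0.237 % were gained DMPs, a share that only gives the scale here because the gene was chosen for this count. The covered cytosines include some with 4 reads or fewer, so this share is lower than among cytosines that could be called. In the longest transcript 6 of the 16 lay in intron 1, 2 in the coding part of exon 3 and 8 in intron 3, and none lay in a repeat by the authors' annotation. The 6 in intron 1 fell in the Lhx2 promoter region as the authors annotated it, and the one at 38208055 also lay in an exon of the short transcript ENSMUST00000155964.1. Reads per position ran from 19 to 96 in wt (median 40) and from 13 to 71 in βerko MEFs (median 25). Methylation at the 16 positions ranged from 2.25 to 19.4 % in wt (median 12.3 %) and from 81.5 to 100 % in βerko MEFs (median 99.0 %), and 8 of them were fully methylated in βerko MEFs. The exact (Clopper-Pearson) 95 % intervals of the reads did not overlap at any of the 16. These intervals cover counting error only, since PCR reads without molecular identifiers are not independent molecules.

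In intron 1, the gained DMP with the most wt reads was at 38208153, where 11 of 96 reads were methylated in wt (11.5 %) and 54 of 54 in βerko MEFs. At 38208018, the third CpG in capitals of the intron 1 sequence, 2 of 89 wt reads (2.25 %, 95 % interval 0.273 to 7.88) and 67 of 67 βerko reads (100 %, 94.6 to 100) were methylated. At 38208055, 13 of 92 wt reads (14.1 %) and 36 of 39 βerko reads (92.3 %) were methylated. The 3 remaining DMPs of this intron, at 38207787, 38207813 and 38208399, went from 6.06, 12.1 and 12.5 % in wt to 100 % in βerko MEFs. The first pair of these had 33 reads in wt and 17 in βerko MEFs at both positions, so these values may come from the same reads.

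Exon 3 encodes part of the protein and held 2 gained DMPs. At 38210104, 5 of 34 reads were methylated in wt (14.7 %) and 27 of 27 in βerko MEFs. The neighbour at 38210113 stood nearest to the limits of the definition, with 7 of 36 wt reads (19.4 %) and 22 of 27 βerko reads (81.5 %) methylated.

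In intron 3, the first set consisted of 2 CpGs read on both strands. At 38211685 and 38211702 on the plus strand, methylation went from 15.4 % of 39 reads to 91.5 % of 71 and from 14 % of 57 to 98.0 % of 50. On the minus strand, at 38211686 and 38211703, each value was 15.8 % of 19 reads in wt and 93.3 % of 15 in βerko MEFs, so both strands of the same CpGs showed the difference. The second set, at 38212009, 38212022 and 38212031, had 55 reads in wt and 13 in βerko MEFs at every position, with 10.9, 5.45 and 3.64 % in wt and 100, 84.6 and 100 % in βerko MEFs. The smaller number of βerko reads left a wide interval at the middle CpG, from 54.6 to 98.1 %. The last gained DMP, at 38212607, went from 4.88 % of 41 reads to 82.8 % of 29 reads.

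The 5 deposited rows with lost methylation lay at -3665 to -2856 bp, and 4 of them met the read minimum. All 5 lay upstream of the longest transcript but in an intron of ENSMUST00000133661, an Lhx2 transcript that starts at -10216 bp. Over all covered cytosines, which again include some under the read minimum, 0.7 % were lost DMPs. In the authors' annotation 4 of the 5 rows overlapped Gm3058 as well as Lhx2, and 1 lay in the Gm3058 promoter. At 38203163, 48 of 49 wt reads (98.0 %, 89.1 to 99.9) and 9 of 79 βerko reads (11.4 %, 5.34 to 20.5) were methylated. At 38203529, 30 of 31 wt reads (96.8 %) but none of 86 βerko reads were methylated, which allows up to 4.20 % by the exact interval. The other DMPs of the block, at 38203664 and 38203972, went from 81.0 % of 21 reads to 3.08 % of 65 and from 88.9 % of 9 reads to 0 of 37. The fifth row, at 38203629, had 84.4 % of 32 reads in wt and 0 of 4 in βerko MEFs, where the exact interval reaches 60.2 %, and it was not counted as a DMP.

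**Figure D2:**
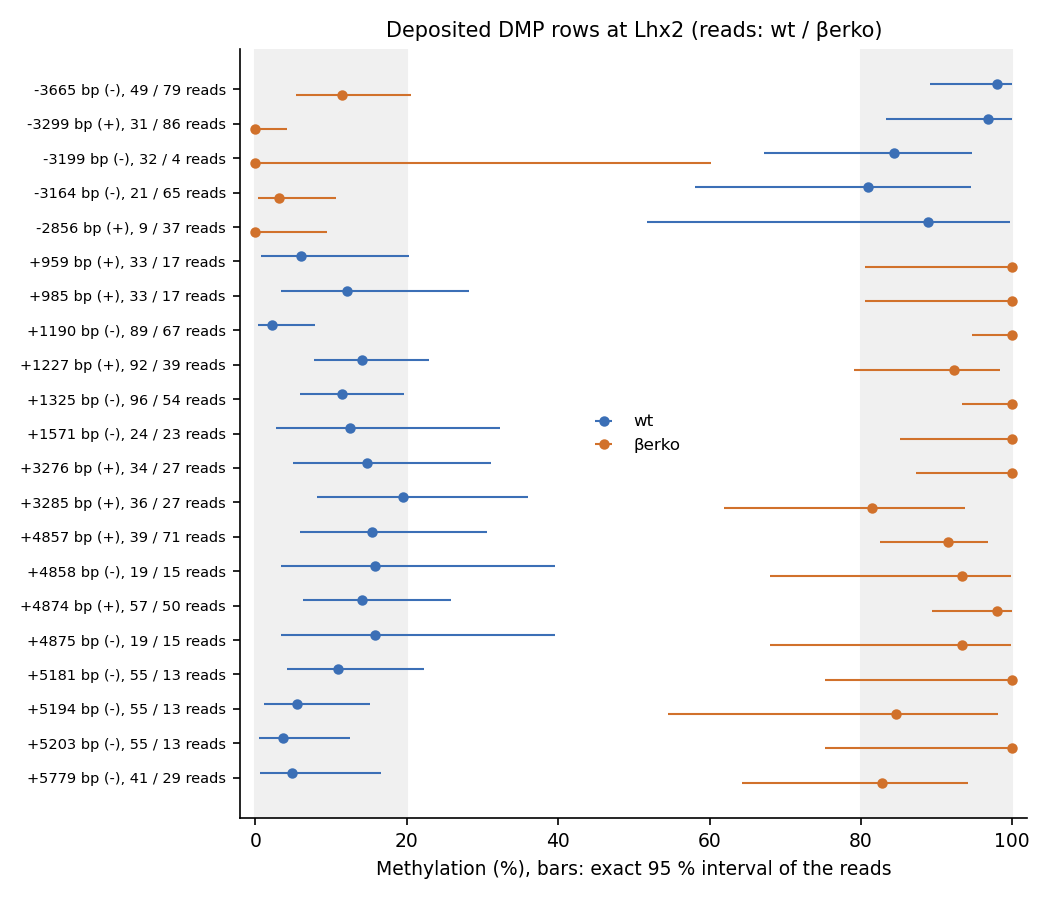
Percent methylation in wt (blue) and βerko (orange) at the 21 deposited DMP rows of Lhx2, ordered by distance from the start of the longest transcript, with the strand and the reads of both libraries at the left. Bars are exact 95 % intervals of the reads, shaded bands mark below 20 % and above 80 %, and the βerko interval of the row with 4 reads reaches 60.2 %.

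The DMPs lay in zones where the other covered cytosines differed in the same direction on average. The zone from 727 to 5857 bp (chr2:38207555-38212685) held 62 covered cytosines, whose mean was 28.8 % in wt and 83.2 % in βerko MEFs, a difference of 54.4 percentage points. Of these, 55 were higher and 4 lower in βerko MEFs, 52 gained at least 20 percentage points and none lost as much. Just past the end of the zone, the cytosine at 6259 bp went from 61.9 % in wt to 37.5 % in βerko MEFs. The 46 cytosines of the zone that were not DMPs went from a mean of 35.0 % to 79.2 %. This mean is a description only, because the zone ends were set after the values had been seen. Cytosines close to a DMP can also share its reads. At 6 cytosines methylation was above 80 % in both libraries, among them 38207945, 38210225 and 38210900 with 100 % in each. By annotated feature, the 18 covered cytosines of intron 1 averaged 23.2 % in wt and 92.1 % in βerko MEFs, the 8 of exon 3 averaged 45.8 % and 96.7 %, and the 40 of intron 3 averaged 30.9 % and 73.0 %. Exons 2 and 4 held no covered cytosine.

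The upstream block (chr2:38203052-38204375) showed the opposite pattern. Its 40 covered cytosines averaged 59.1 % in wt and 14 % in βerko MEFs, a difference of -45.0 percentage points, with 39 lower, 1 higher and 29 lower by at least 20 percentage points. The 35 cytosines without a DMP row went from 54.7 % to 15.6 %. Between this block and the start, 7 cytosines at -1324 to -745 bp averaged 72.8 % in wt and 49.6 % in βerko MEFs.

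No cytosine between -745 and 318 bp was covered, so the start of the longest transcript itself was not measured. The covered cytosines nearest downstream of this start and of the upstream start were low in methylation. The 11 covered cytosines in the untranslated part of exon 1, 318 to 454 bp downstream of the start, averaged 2.17 % in wt and 9.61 % in βerko MEFs. The highest of them was 6.58 % in wt and 26.5 % in βerko MEFs, and 1 of the 11 gained at least 20 percentage points. The 50 cytosines near the upstream start averaged 9.03 % in wt and 4.52 % in βerko MEFs, and 6 of them lost at least 20 percentage points. For scale, changes of this size were gains at 6.81 % and losses at 10.4 % of all covered cytosines. Whether the counts of 1 and 6 differ from these shares was not tested. Further upstream, 6 cytosines at -14479 to -14016 bp averaged 81.2 % in wt and 76.8 % in βerko MEFs. From the first exon into the gained zone, βerko methylation was 26.5 % at 454 bp, 58.2 % at 727 bp and 100 % at 959 bp. Wt methylation at the same cytosines was 0, 0 and 6.06 %, and nothing between 454 and 727 bp was covered. The 5 cytosines between 500 and 999 bp averaged 11 % in wt and 82.7 % in βerko MEFs. These 5 include the gained DMPs at 959 and 985 bp.

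**Figure D3:**
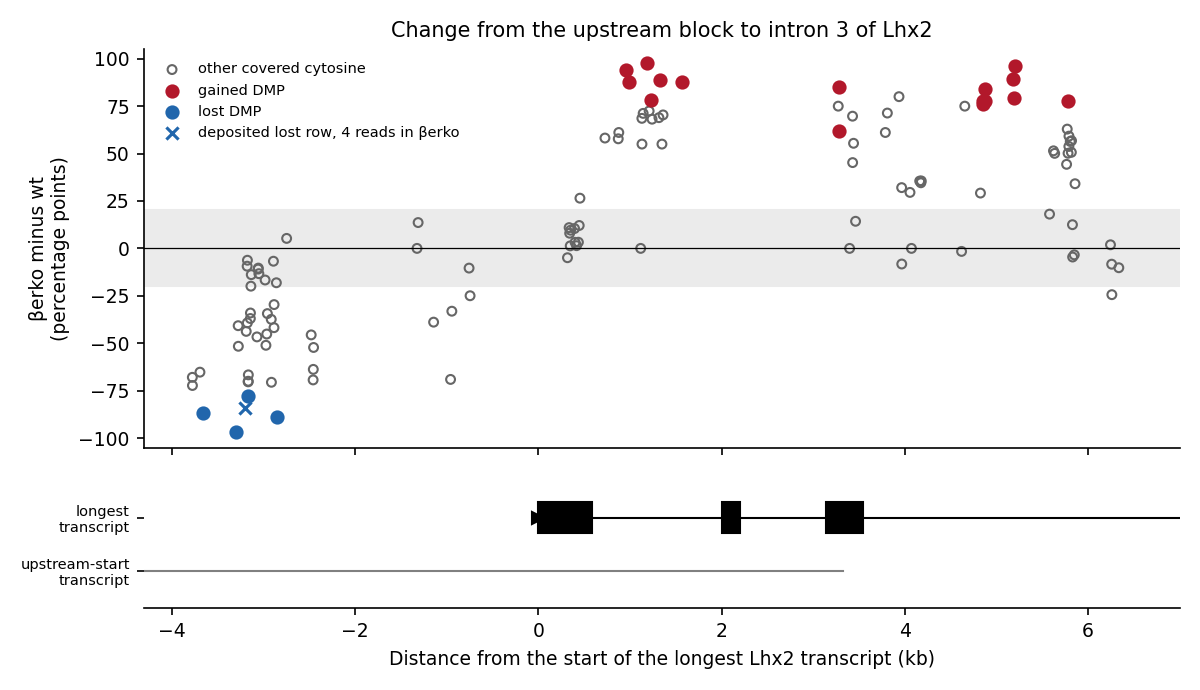
Difference in methylation, βerko minus wt in percentage points, from 4.3 kb upstream to 7 kb downstream of the start of the longest Lhx2 transcript. Filled points are gained (red) and lost (blue) DMPs, the cross is the lost row with 4 βerko reads, open points are the other covered cytosines and the grey band spans 20 percentage points either way; open points follow the DMPs on both sides of the start.

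Beyond the gained zone the difference turned. The 25 covered cytosines from 6244 to 25500 bp averaged 63.6 % in wt and 45.5 % in βerko MEFs, with 10 lower by at least 20 percentage points and none higher by as much. In intron 4 the 8 covered cytosines averaged 82.0 % and 67.4 %. A group of 3 cytosines from 14809 to 14865 bp in this intron was almost fully methylated in both libraries (96.8 % and 96.9 %), whereas the next 3, from 16078 to 16152 bp, averaged 66.5 % in wt and 41.3 % in βerko MEFs.

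Some positions narrowly missed the definition of a DMP. The cytosine at 38210764 had 20 % in wt and 100 % in βerko MEFs, and that at 38208037 had 6.52 % and 78.9 %. On the side of losses, 38203053 had 95.2 % and 22.9 %, 38205870 had 92.7 % and 23.6 %, and 38203662 had 76.2 % and 6.15 %. The DMPs nearest to the limits on the inside, with the values given above, were 38210113 and then 38212607 among the 16 gains, and 38203664 and then 38203163 among the 4 losses. The number of reads at positions that are not DMP rows was not used here, as the table of all cytosines gives percentages only.

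Both strands were covered at 15 CpGs of the window. The median difference between strands was 5.18 percentage points in wt and 4.67 in βerko MEFs, and the sign of the difference between genotypes was the same on both strands at 13 of 15 (86.7 %), with 1 of the 13 at 0 on both. Over all 70667 CpGs covered on both strands the medians were 1.8 and 1.35 percentage points, and the sign was the same at 44602 (63.1 %), of which 19138 were at 0 on both. The widest strand difference in the window, 50 percentage points in βerko MEFs, was in the upstream block. It lay between 0 % at 38203652 on the plus strand and 50 % at 38203653 on the minus strand. The reads behind these values are not given, and the nearby minus-strand row at 38203629 had only 4 βerko reads.

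Covered cytosines were also joined into segments wherever gaps were no longer than 500 bp, which uses coverage and not methylation. The window fell into 12 segments. The segment from 318 to 1571 bp went from 15.2 % to 60.8 % over 29 cytosines, a difference of 45.6 percentage points, and that from 3273 to 6335 bp went from 33.4 % to 77.0 % over 48, a difference of 43.5. Of 16065 segments of the genome with at least 10 cytosines, 0.753 % had a mean gain of at least 20 percentage points, and 8 and 13 segments, these included, reached the respective gains. A mean loss of at least 20 percentage points was found in 7.07 % of the segments, and 197 were as low as the upstream block. The gained segments and the upstream block hold the DMPs for which Lhx2 was chosen, so their ranks are a description only.

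The upstream block had 57.9 % G and C and an observed to expected CpG ratio of 0.677. The gained segments had 62.5 % and 0.645, and 55.8 % and 0.590. The G and C content of the block thus lay between theirs, and its ratio lay above both. Other segments with a mean loss of at least 20 percentage points, of 2 to 8 cytosines, had ratios from 0.331 to 0.8. The segment at the upstream start, low in both libraries, had 76.9 % G and C and a ratio of 0.706. Short words were searched on both strands within 100 bp of the DMP CpGs. GCCNNNGGC, a word of AP2 factors, lay near 1 of 14 gained and 0 of 4 lost CpGs, beside 22.3 % of the 756259 covered CpGs on sequences of the reference. The full palindrome of the estrogen response element (ERE) lay near 0 of 14 and 0 of 4, beside 0.0206 %. The half-site AGGTCA, which the full form can contain, was found near 4 of 14 gained and 0 of 4 lost CpGs, beside 8.49 %. The homeodomain word TAATTA was found near 0 of 14 and 1 of 4, beside 1.58 %. Neighbouring CpGs share the same searched sequence, so these counts are descriptions of the letters only.

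The 12 LIM homeobox genes, which encode the relatives of Lhx2, were compared over the same contrast. Over the gene and the 2 kb upstream of it, Lhx2 averaged 33.3 % in wt and 38.9 % in βerko MEFs over 184 cytosines, a difference of 5.57 percentage points that hides both blocks. Lhx6 (5.95 percentage points) and Lhx9 (6.33), factors of interneuron and gonad development, had similar means but 1 gained DMP each, and Lhx9 had 1 lost DMP. Isl2, a motor neuron factor, went from 65.1 % to 29.2 % over 124 cytosines and had 19 lost and no gained DMPs. Lmx1a, a factor of midbrain dopamine neurons, had a difference of -16.1 percentage points with 2 gained DMPs and 1 lost. Gained DMPs were found in 6 of the 12 genes and lost DMPs in 6, with both in 3 and neither in 3. Lhx2, which was chosen for its DMPs, is included in the counts of gained, lost and both. Of 15398 protein-coding genes with at least 5 covered cytosines, 6.56 % held a gained and 12.6 % a lost DMP. The family genes had a median of 114 covered cytosines and these protein-coding genes a median of 34, and the part of this difference in the counts was not tested. Of 23 gained DMPs in the family 16 were those of Lhx2, and of 27 lost DMPs 19 were those of Isl2. No family gene reached a mean gain of 20 percentage points, beside 0.552 % of the protein-coding genes, and 1 reached a mean loss of that size, beside 3.08 %. The median difference was -0.407 percentage points in the family and -0.401 over these protein-coding genes.

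Of the 9 genes for cofactors and LIM-only proteins, with a median of 83 covered cytosines, 0 held a gained DMP and 3 held lost DMPs, beside the same 6.56 % and 12.6 %. Ldb1, the scaffold of the LIM complexes, averaged 13.1 % in wt and 13.8 % in βerko MEFs. Lost DMPs numbered 13, of which Lmo1 had 2, Lmo2 had 5 and Lmo4 had 6. Lmo2, a LIM-only factor of blood formation, went from 45.9 % to 19.5 % over 30 cytosines. Lmo3 was higher in βerko MEFs by 17.1 percentage points over 18 cytosines, without a DMP.

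**Figure D4:**
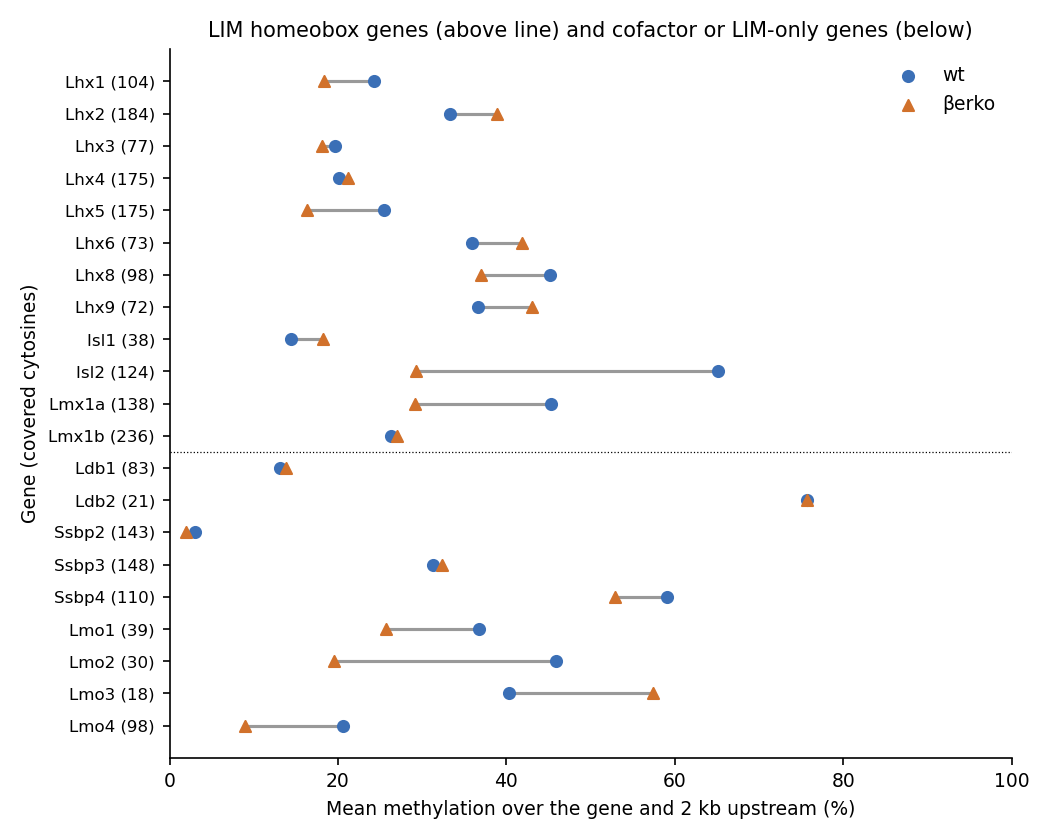
Mean methylation in percent over the gene and 2 kb upstream in wt (circles) and βerko (triangles) for 12 LIM homeobox genes, above the dotted line, and 9 cofactor or LIM-only genes below it, with the number of covered cytosines in brackets. Isl2 and Lmo2 show the widest losses, and the mean of Lhx2 moved by 5.57 percentage points.

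The other covered GENCODE genes within 200 kb of Lhx2 held no DMP. In the authors' annotation Gm3058 overlapped lost DMPs, as given above. Dennd1a, the upstream neighbour that encodes a regulator of endocytosis, averaged 36.9 % in wt and 35.8 % in βerko MEFs, and Nek6, a downstream gene for a mitotic kinase, averaged 38.4 % and 37.2 %. A U6 small nuclear RNA gene with 4 covered cytosines differed by 5.72 percentage points. Further away, Psmb7 and Strbp, at 218 and 635 kb from Lhx2, differed by -0.75 and -0.939 percentage points without a DMP. Crb2, a cell polarity gene 540 kb upstream, averaged 82.4 % in wt and 64.3 % in βerko MEFs over 106 cytosines and held 6 lost DMPs.

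Of 3970 gene names with at least 1 DMP, Lhx2 had the most gained ones, 16. Tbx4, a hindlimb T-box factor, followed with 13 gained and 0 lost. Lhx2 was chosen for this count, so its first place is a description. Over the gene and 2 kb upstream it had 184 covered cytosines, beside a median of 34 in protein-coding genes with at least 5. The part of coverage in this rank was not tested. At least 4 gained and at least 4 lost DMPs were found in 8 genes, namely AI854517, Ajap1, Barx1, Camta1, LOC547380, Lhx2, Pitx1 and Prdm16. Likeness was measured as the distance between genes in the log2(count + 1) of gained and of lost DMPs. It was taken among 333 gene names with at least 5 DMPs. Names were split at spaces, so the 333 include the words cell-specific, hematopoietic and transcript, which are not gene symbols. Each of these words had 0 gained and 6 lost. The nearest was Camta1, a calmodulin-binding transcription factor, with 11 gained and 7 lost (distance 0.844), then Ajap1 with 6 and 4 (1.28), Gm5563 with 11 and 1 (1.41), Ap2a1 with 6 and 2 (1.48) and AI854517 with 5 and 5 (1.53). All these counts come from the same 2 libraries.

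**Figure D5:**
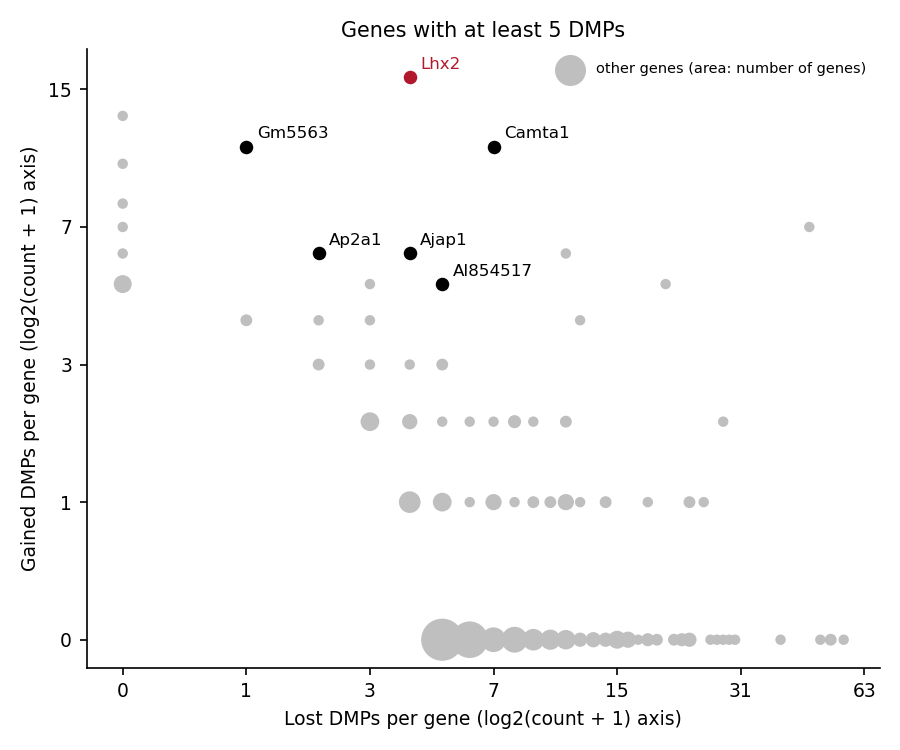
Gained against lost DMPs per gene for the 333 gene names with at least 5 DMPs, both axes as log2(count + 1). Grey circles are other genes, with area by the number of genes at that point; Lhx2 (red, 16 gained and 4 lost) lies above the 5 genes nearest to it (black).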

How the data were processed

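RRBS libraries of wt and βerko MEFs, 1 per genotype from 3 pooled DNA batches, were made by the authors from MspI fragments of 160 to 340 bp with 19 PCR cycles. Per the submitters' processing notes, CASAVA 1.4 and mm9 were used. The authors mapped reads with the Genomatix Mining Station and annotated DMPs with RegionMiner, versions not given in the sources used here. The deposited values are percent methylation per cytosine covered in both libraries, without depth, and read counts per library at DMPs. Median depth was 33 (wt) and 31 (βerko) reads at gained DMPs, and 21 and 47 at lost DMPs.

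Methylated reads were recovered as percent times reads, and all 8071 rows gave whole numbers within 0.02 reads. DMPs were assigned to the gene they overlap, otherwise to the nearest. All 756259 covered CpGs on sequences of the reference were CpGs in NCBIM37, and 11 on other sequences were not checked. GENCODE M1 gave gene models. Python 3.11.15, pandas 2.3.3, NumPy 2.4.6, SciPy 1.17.1 and matplotlib 3.10.9 were used, and the calculations were tested on simulated data. With 1 library per genotype no test was run, and exact 95 % intervals cover reads only. Lhx2, the gene lists and the naming rule (DMP rows of Lhx2, the 3 segments with the largest mean gains and losses, LIM and cofactor genes, genes within 200 kb of Lhx2 together with Crb2, Strbp and Psmb7 further away, the 5 genes nearest in DMP counts) were chosen with earlier results of these data known. Alternatives varied the read minimum, the DMP limits, the window, the strands, the segment gap and the likeness measure.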

Additional observations from a re-analysis of the deposited data

How the results depend on the processing

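Of 32 alternative settings, 22 stayed within the limits set for them, 9 moved and 1 turned the sign. Limits of 10 % and 90 % in place of 20 % and 80 % left 3 gained and 1 lost DMPs. Requiring 10 reads in both libraries left 16 gained and 3 lost. Counting positions with the same read numbers once, an alternative added after seeing the data, left 12 gained and 4 lost. The mean difference of the window depended on its extent, with 6.91 percentage points for 10 kb flanks and 12.4 between the first and the last DMP row, and turned to -0.655 with the DMP rows left out, which removes 16 gained and 5 lost rows. The share of cytosines that lost methylation was 32.3 % at a limit of 10 percentage points and 10.9 % at 50. A segment gap of 200 bp gave 22 segments. The family median was -1.93 percentage points over gene bodies alone. With plain counts 2 of the 5 nearest genes were shared. Where no construction is named, the cause was not tested.

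No paired analysis was possible because each genotype has 1 library. Settings without a library were not run, as each genotype has a single one. Zone means weight all cytosines alike, since reads at positions other than DMPs were not used.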
